A study of Homo sapiens with 23 samples.

Results

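Loops at 8 genes, VAV2, ZNF704, ANKRD11, NDUFAF6, GTF2IRD1, MYOF, MED13L and BMPER, were compared between a library labelled T0 and a library labelled T30 of T47D cells. The 8 genes, of 19974 protein-coding genes, were chosen by their listed loops: many more partners, or loops with many contacts, in T30. The T30 values, and the contrast with T0, are therefore a description of what chose the genes, with no test. Every loop with an end in a gene widened by 10 kb on each side was taken, which gave 37 of the 7075 loops of T0 and 153 of the 9591 loops of T30. T47D, a cell line established from a breast tumour, is widely used because it carries much progesterone receptor. HiChIP, here labelled PR for the protein enriched, joins DNA ends lying close together in the nucleus and then pulls down those bound by that protein. Before the experiment the cells were kept in medium with hormone-depleted serum and then without serum. The T0 library carries no treatment in its label, and the title of the T30 library reads PR5020, taken here as PR with R5020, a synthetic progestin used in the series. For these 2 libraries the labels give no dose, and 0 and 30 stand without a unit. Each condition was 1 library, so the library and the condition cannot be told apart, and no difference below has a replicate check or a test. The lists hold no expression values, so the identity of the cells was not checked against marker genes.

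The progesterone receptor is a nuclear hormone receptor that, once bound by a progestin, sits mostly at enhancers, many of them inside genes or far from gene starts. Enhancers can act on promoters through chromatin loops, and a stretch of DNA from which many loops run is called a hub. A loop here is a pair of bins of 5 kb whose read pairs, called contacts, passed the authors' q-value of 0.05. A partner of a gene is a distinct bin joined to one of the gene's bins, and a hub is a bin with at least 5 partners. Both bins of a loop that lies within a gene count as partners of that gene, so partners and within-gene loops are not separate measures. A gene with no listed loop had none that passed the threshold, which is not the same as no contact.

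The lists themselves differ in ways that touch every count below. The largest listed p-value was 0.000233 in T0 and 2.84e-05 in T30, and the fewest listed contacts were 7 and 8. The T0 list held 127457 contacts and the T30 list 135538. T0 held 360 loops of 20 to 50 kb, and T30 held 3024. Under 20 kb the counts were 574 and 0. How deeply each library was sequenced is not known from the lists.

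In T30 the 8 genes held 2545 contacts (exact Poisson 95% interval 2447 to 2646) against 606 in T0 (559 to 656). These were 1.88% and 0.475% of all listed contacts. Over the 8 genes, partners numbered 35 in T0 and 151 in T30. All 8 genes had more partners in T30, as did 51.5% of the 8301 protein-coding genes with a loop in either library. A gain of at least 8 partners was seen at 6 of the 8 and at 1.43% of those genes, or 3.75% of the 667 such genes as long as the members (148700 to 319118 bp). On partners plus 1, 6 of the 8 were at least 2-fold higher, against 41.4% of genes, and none was 2-fold lower, against 27.4%. Because the genes were picked for this contrast, these shares describe the choice and show nothing further.

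**Figure D1:**
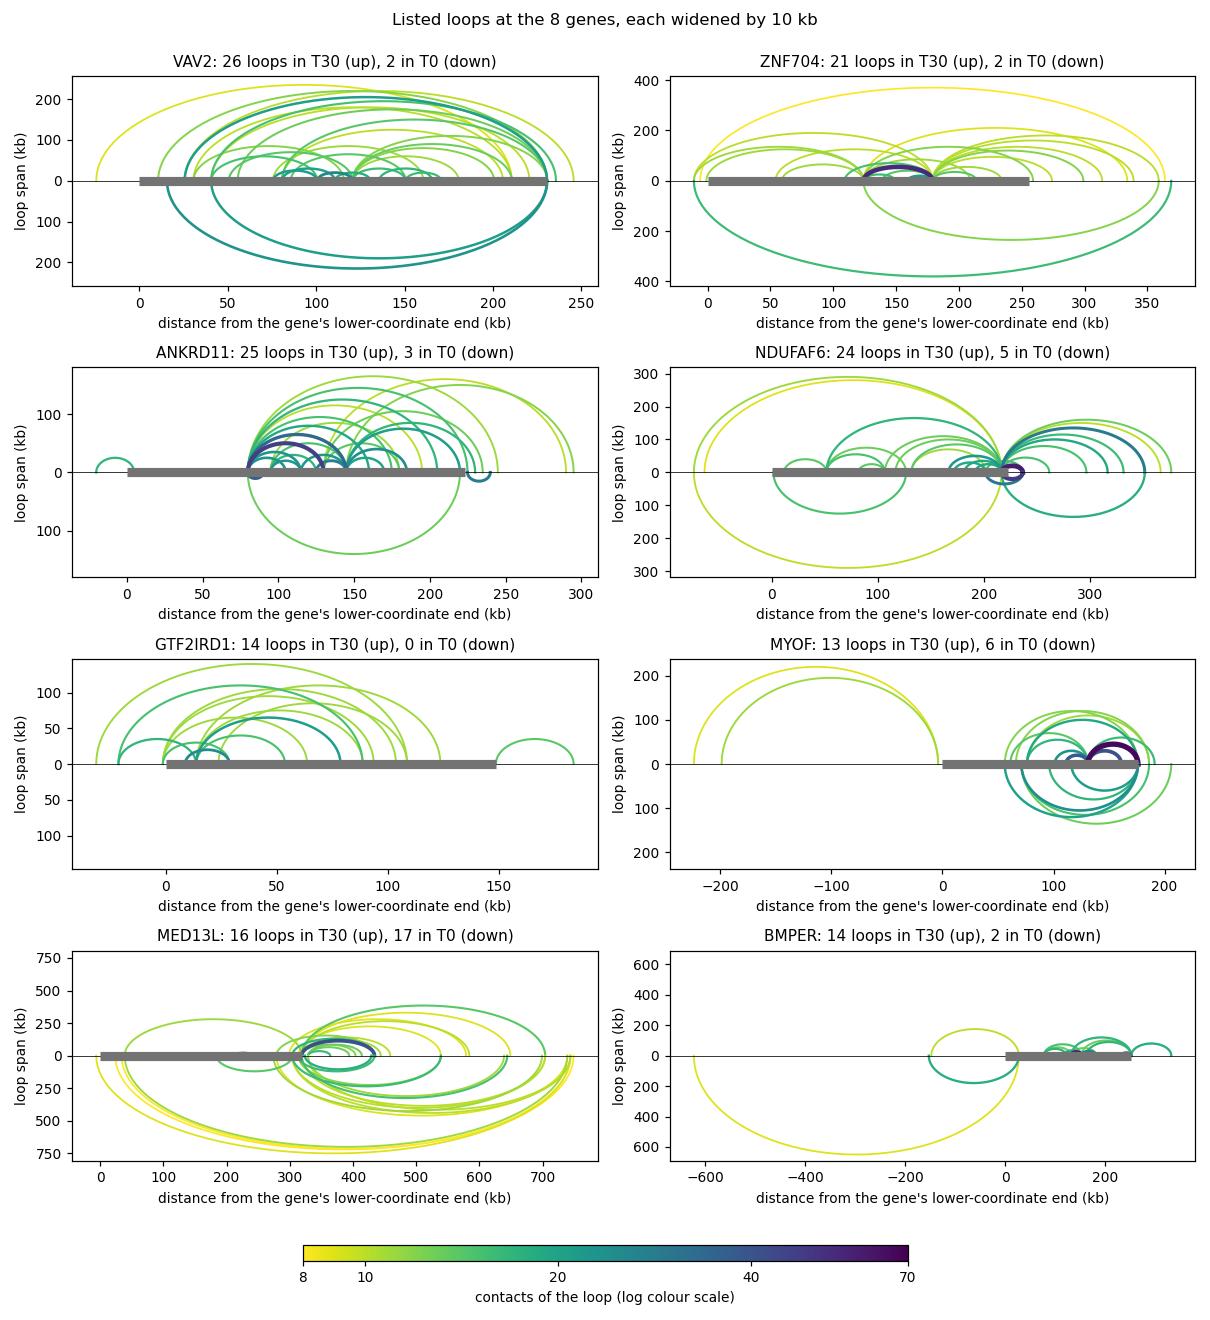
Each arc joins the 2 bins of a listed loop at 1 gene, with T30 loops drawn upwards and T0 loops downwards. The horizontal axis is the distance in kb from the gene's lower-coordinate end, the height is the loop's span in kb, the grey bar is the gene and the colour is the number of contacts on a log scale. At VAV2 26 T30 arcs stand over 2 T0 arcs, while MED13L has 16 and 17.

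Promoter sequences are shown for some of the genes whose start bin carried loops described below. ANKRD11, whose start bin had 1 partner in each library, is left out. At MYOF the inner hub met the start with 67 contacts. The sequences are those at the start hubs of VAV2 and MED13L, the start of MYOF and the first start of GTF2IRD1. They come from RefSeq (GRCh38.p14), run 5′ to 3′ from 250 bases before the start site to 50 bases after it, and were available for 6 of the 8 genes; ZNF704 and NDUFAF6 were not used. The hormone receptor half-site TGTTCT, or AGAACA on the other strand, and the spaced core ACANNNTGT, which reads alike on both strands, were searched, and matches are in capitals.
VAV2 (chr9:133992275-133992574, strand minus): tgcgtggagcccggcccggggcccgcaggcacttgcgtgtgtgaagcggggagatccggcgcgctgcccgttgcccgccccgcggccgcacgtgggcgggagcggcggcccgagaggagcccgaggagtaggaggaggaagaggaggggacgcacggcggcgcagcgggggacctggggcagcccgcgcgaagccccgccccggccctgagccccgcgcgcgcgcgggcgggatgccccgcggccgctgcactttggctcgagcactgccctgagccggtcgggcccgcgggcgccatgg
MED13L (chr12:116277644-116277943, strand minus): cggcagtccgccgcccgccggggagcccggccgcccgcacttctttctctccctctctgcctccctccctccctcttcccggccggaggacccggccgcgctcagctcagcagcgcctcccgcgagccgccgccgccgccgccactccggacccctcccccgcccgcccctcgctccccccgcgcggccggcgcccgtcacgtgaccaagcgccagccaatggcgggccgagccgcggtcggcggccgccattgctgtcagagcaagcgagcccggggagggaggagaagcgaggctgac
MYOF (chr10:93482285-93482584, strand minus): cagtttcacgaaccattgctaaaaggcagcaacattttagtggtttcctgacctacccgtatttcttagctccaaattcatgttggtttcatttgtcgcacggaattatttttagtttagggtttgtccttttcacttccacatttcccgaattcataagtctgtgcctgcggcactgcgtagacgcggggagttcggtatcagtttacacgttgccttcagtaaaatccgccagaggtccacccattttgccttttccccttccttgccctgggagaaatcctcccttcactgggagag
GTF2IRD1 (chr7:74453656-74453955, strand plus): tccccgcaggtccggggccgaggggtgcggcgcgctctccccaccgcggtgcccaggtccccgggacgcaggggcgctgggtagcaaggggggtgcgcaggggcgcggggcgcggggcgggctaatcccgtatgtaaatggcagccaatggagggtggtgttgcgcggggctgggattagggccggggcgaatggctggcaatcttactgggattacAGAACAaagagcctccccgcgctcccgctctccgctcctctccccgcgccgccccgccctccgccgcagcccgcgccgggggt

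Of the 8 promoter windows of the 6 genes, 1 held the half-site, that of GTF2IRD1, with AGAACA beginning 33 bases before the start site. None held the spaced core. Over all 35116 windows of the same length the half-site was found in 14.8% and the spaced core in 5.37%. A start site bin carried a loop at 4 of these 6 genes in T0 and at 5 in T30, BMPER being without one in both. Of the 6501 protein-coding genes with a promoter window and a loop in either library, 23.4% had a loop at a start site bin in T0 and 24.2% in T30. The inner hub bins lie outside these windows, and their sequence was not used here.

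The genes are described by the roles of their products, first those that act in the nucleus. ANKRD11, a chromatin regulator known to bind nuclear receptor coactivators and histone deacetylases, lies on chromosome 16 (89267630 to 89490561, minus strand). It had 3 loops with 79 contacts in T0 and 25 loops with 477 contacts in T30, and its partners went from 4 to 22. A pair of bins carried most of them, both inside the gene. The bin from 89345001 to 89350000, whose centre lies 143 kb from the gene start, had 2 partners in T0 and 10 in T30. All 10 lay on its higher-coordinate side, towards the start of the gene, at spans of 25 to 165 kb. The loop to 89395001 had 47 contacts, the most at this gene, and the one to 89410001 had 34. Farther out the loops to 89425001, 89440001, 89460001 and 89470001 had 19, 15, 10 and 17 contacts, and the loop to the start bin at 89490001 had 15. The last of the 10 partners, at 89510001, lies in the neighbouring gene SPG7, which encodes a mitochondrial protease, and had 11 contacts.

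The other ANKRD11 hub, from 89410001 to 89415000, had 0 partners in T0 and 9 in T30, of which 4 lay below it and 5 above. It is itself a partner of the first hub. The gene start bin stayed sparse, with 1 partner in each library. In T0 that partner was SPG7, at 89505001 with 29 contacts, and in T30 it was the inner hub. The strongest T0 loop of the gene, of 37 contacts, ran from the same bin at 89345001 over 10 kb, a span the T30 list does not hold. So 1 hub bin of the gene already had loops in T0, and the other had none.

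GTF2IRD1 encodes a transcription factor of the TFII-I family and lies in the Williams syndrome region of chromosome 7 (74453906 to 74602605, plus strand). No loop was listed at it in T0, and 14 loops with 199 contacts were listed in T30. Its partners went from 0 to 16. The loops were of modest strength, with 11 to 25 contacts and a median of 12.5. The hub, from 74465001 to 74470000, had 5 partners and lies 13.1 kb inside the nearest start site. The bin at 74450001, which holds both listed start sites and the promoter printed above, had 4 partners, all on the side of the gene body. The strongest loop, of 25 contacts over 20 kb, joined 74460001 and 74480001. The loops of GTF2IRD1 thus gathered at its start and at the first bins inside it.

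ZNF704, a zinc finger protein gene on chromosome 8 (80628451 to 80884419), had 2 loops with 28 contacts in T0 and 21 loops with 290 contacts in T30. Its partners went from 2 to 21. Both T0 loops were long, of 380 and 235 kb, and ran to PAG1, an adaptor gene of Src kinase signalling. In T30 the bin from 80805001 to 80810000 had 13 partners and the bin from 80750001 to 80755000 had 8, where T0 listed 0 and 1. The loop between these 2 hubs had 54 contacts over 55 kb, and the next strongest at the gene had 21. Of the 13 partners of the first hub, 6 lay below it and 7 above. PAG1 was reached from it at 80965001 and 80985001 with 10 contacts each. Both hubs lay well inside the gene, at 69.9% and 48.5% of its length from the lower-coordinate end.

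MED13L, a subunit of the kinase module of Mediator, lies on chromosome 12 (115958576 to 116277693, minus strand) and differed from the other genes. It had 17 loops with 198 contacts in T0 and 16 loops with 220 contacts in T30, and its partners went from 12 to 16. Its gain of 4 partners became -2 with lists of equal length or at spans of at least 100 kb, and 8 with adjacent partner bins merged. Only 1 loop in T0 and 2 in T30 stayed within the gene. What differed was where they met. In T0 the bin with most partners was 116260001, with 4. In T30 it was 116275001, with 8 (2 in T0), which holds the gene start and the promoter printed above. With the bin on each side included the start had 5 partners in T0 and 9 in T30, a smaller difference than at the bin alone. Whether loops moved by a bin was not tested. Of the 8 partners 7 lay upstream of the gene, and the strongest loop ran 115 kb to 116390001 with 41 contacts.

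That upstream bin, from 116390001 to 116395000, holds no gene in the RefSeq table. It was itself a hub outside MED13L, with 17 partners in T30 against 5 in T0. In T30 it was also reached from 116260001 with 17 contacts and from 116235001 with 12. The same stretch was reached in T0 from 116270001 with 16 contacts and, from 116280001 to 116385001, with 18. The longest T0 loops of MED13L, up to 750 kb, ended near 116700001, a bin whose partners numbered 7 and then 1. No T30 loop of the gene was longer than 385 kb. Its median span was 400 kb in the first library and 135 kb in the second.

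VAV2 encodes a guanine nucleotide exchange factor that acts downstream of growth factor receptors. The gene lies on chromosome 9 (133761894 to 133992324, minus strand). It had 2 loops with 44 contacts in T0 and 26 loops with 372 contacts in T30, and its partners went from 3 to 28. The gain of 25 was 14 at q under 0.01, 13 with adjacent partner bins merged and 11 at spans of at least 100 kb. Both T0 loops left the start bin at 133990001, whose promoter is printed above, for 133775001 with 23 contacts and for 133800001 with 21. In T30 that bin had 5 partners, all inside the gene and 110 to 220 kb away. A hub with no T0 loop, from 133880001 to 133885000, had 7 partners and lies 110 kb from the start, near the middle of the gene. It was joined to the start bin by 12 contacts. No VAV2 loop stood out in strength, since the contacts ran from 9 to 26, and the 26 loops fell on many bins along the gene.

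MYOF, myoferlin, is a ferlin that acts in membrane repair and fusion. The gene lies on chromosome 10 (93306429 to 93482334, minus strand). It had 6 loops with 110 contacts in T0 and 13 loops with 290 contacts in T30, and its partners went from 7 to 13. In T0 4 of the 6 loops met at the start bin, 93480001, which holds the promoter printed above, with 17 to 24 contacts. In T30 that bin had 3 partners. The bin from 93435001 to 93440000, 44.8 kb inside the start, instead had 7 partners, where T0 listed none at it or at the bins beside it. Its loop to the start bin had 67 contacts over 45 kb and ranked 4th of all T30 loops by contacts. The loops from the same bin to 93465001 and 93415001 had 41 and 38. One of its partners, at 93495001, lies in CEP55, a cell division gene, with 16 contacts.

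BMPER encodes a secreted protein that binds bone morphogenetic proteins. It lies on chromosome 7 (33904915 to 34156427, plus strand). It had 2 loops with 27 contacts in T0 and 14 loops with 283 contacts in T30, and its partners went from 2 to 12. Both T0 loops left the bin at 33930001, 27.6 kb from the gene's lower-coordinate end, for bins below the gene. The longer one, of 650 kb and 9 contacts, ended in BBS9, a gene of the ciliary BBSome. In T30 there were 3 hubs of 5 partners each, at 34035001, 34055001 and 34155001, and none had a T0 loop. The last holds the end of the gene. They were joined to each other by 59, 17 and 13 contacts, so each pair of hubs was a listed loop. No loop in either library ended in the bins of the 2 start sites.

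NDUFAF6, an assembly factor of mitochondrial complex I, lies on chromosome 8 (94895799 to 95118496). It had 5 loops with 120 contacts in T0 and 24 loops with 414 contacts in T30, and its partners went from 5 to 23. A single bin, from 95110001 to 95115000, held 17 partners in T30 and 3 in T0, the largest number at any of the 8 genes. It lies 6.00 kb from the gene's upper end. Of its 17 partners 9 lay below it and 8 above. The 3 T0 loops of this bin were all listed again between the same bins. The loop to PLEKHF2, an endosomal protein gene 20 kb away, had 48 contacts in T0 and 59 in T30. The loop to CFAP418, a cilia gene at 95245001, had 18 and 29, and that to INTS8, an Integrator subunit gene at 94820001, had 10 and 11. In T30 the bin also met 94945001, which lies in NDUFAF6 and TP53INP1, a p53-induced gene, with 17 contacts. This hub thus grew on an anchor that T0 already showed.

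**Figure D2:**
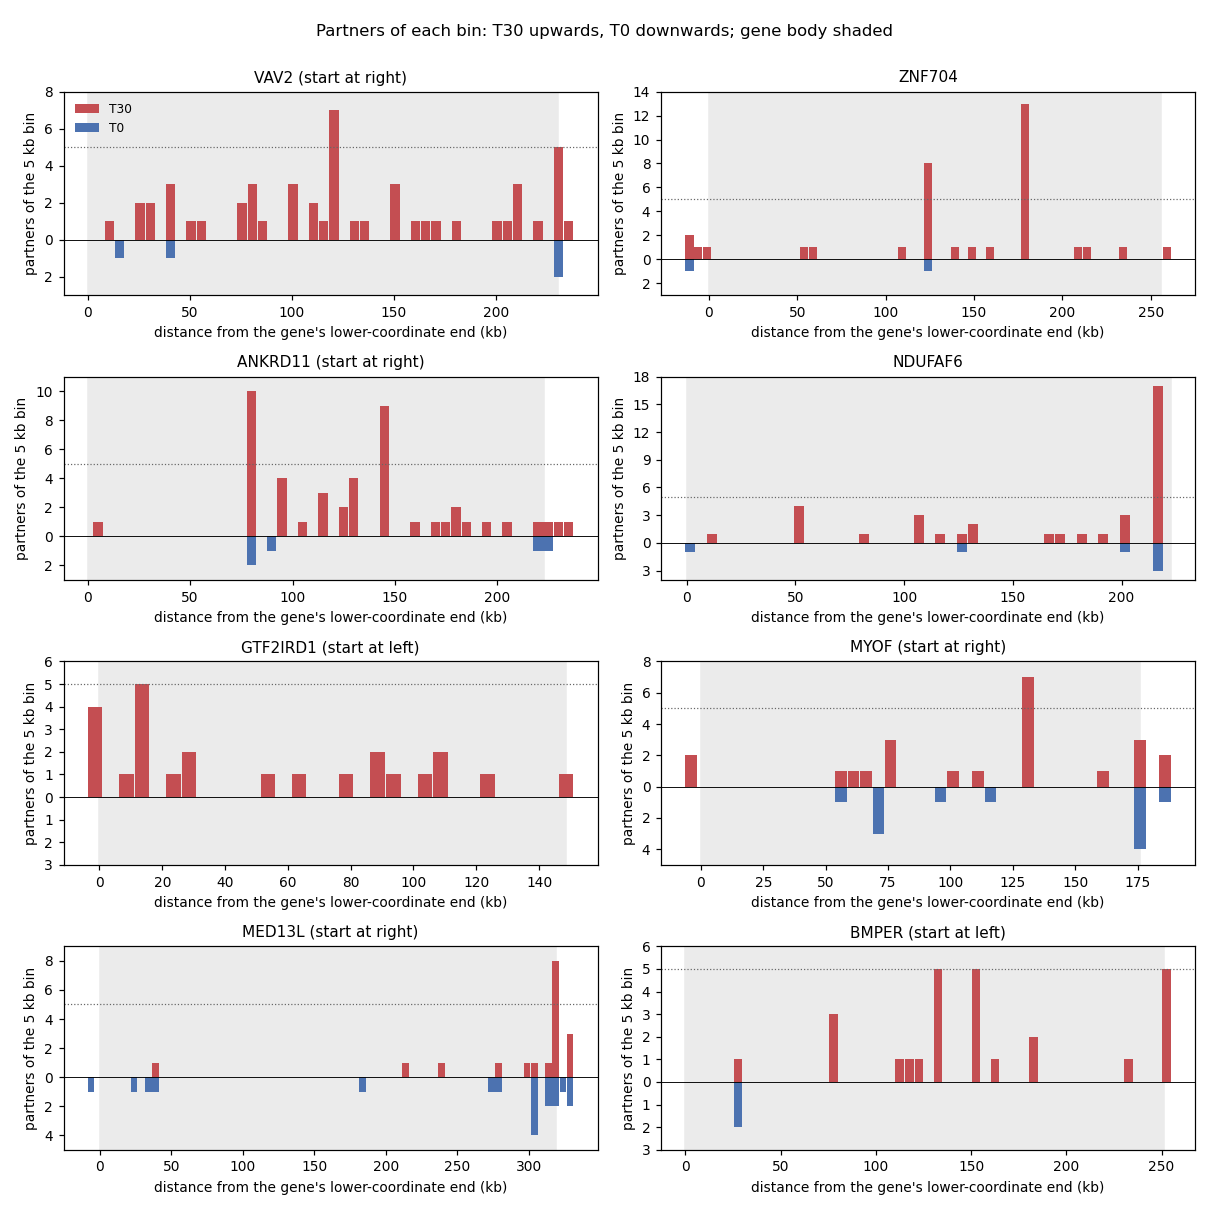
Bars give the number of partners of each 5 kb bin with a loop, T30 upwards and T0 downwards, against the distance in kb from the gene's lower-coordinate end. The gene is shaded and the dotted line marks 5 partners. In T30 13 bins reach the line, and in T0 none does, the largest T0 value being 4.

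Taking the 8 genes in 1 view, T30 had 13 hub bins at them, at least 1 at each gene, and T0 had 0. Of the 13, 8 had no loop in T0, either at the bin or at the bins beside it, which was so for 62 of the 209 T30 hub bins at protein-coding genes (29.7%). By position, 10 of the 13 lay inside the gene and 3 held a gene end, 2 of them the start (VAV2 and MED13L) and 1 the other end (BMPER). Over all protein-coding genes, 123 of 209 T30 hub bins lay inside a gene (58.9%, exact binomial 95% interval 51.9 to 65.6) and 61 held an end (29.2%). At the 8 genes the share inside was 76.9% of 13 hubs, some of which are joined to each other, and no comparison was made because the genes were chosen on their T30 loops. In T0 the share inside over all genes was 41.6% of 166 hubs. Of the 153 T30 loops, 98 (64.1%) ended in a hub bin of their gene. The share over other genes was not counted, so this, too, describes the chosen genes only.

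Most T30 loops at the 8 genes stayed within the gene. Both ends lay in the same widened gene for 11 of 37 loops in T0 (29.7%, exact binomial 95% interval 15.9 to 47) and for 106 of 153 in T30 (69.3%, 61.3 to 76.5). The intervals cover counting error only, and loops that share an end are not independent. Over all loops at protein-coding genes the share was 20.8% in T0 and 33.5% in T30. Over loops at the other 1368 genes of the members' range of length it was 20.4% and 41.3% (38.9 to 43.8). With loops pooled over genes, the within-gene share was thus higher in T30 in all 3 sets. Because the 8 genes were chosen on their T30 loops, their share is not compared with that of the other genes. By gene, the T30 count was 24 of 26 at VAV2, 21 of 25 at ANKRD11, 12 of 14 at BMPER, 10 of 13 at MYOF, 10 of 14 at GTF2IRD1, 14 of 21 at ZNF704 and 13 of 24 at NDUFAF6. At MED13L it was 2 of 16. The T0 count was 2 of 2 at VAV2, 2 of 3 at ANKRD11, 5 of 6 at MYOF and 1 of 5 at NDUFAF6. It was 0 of 2 at ZNF704, 0 of 2 at BMPER and 1 of 17 at MED13L, and GTF2IRD1 had no T0 loop. The share was thus lower in T30 at VAV2 and MYOF, and MED13L alone held 17 of the 37 T0 loops. Most T30 loops thus lay within the gene at 7 of the 8 genes and not at MED13L, whose loops ran upstream. At NDUFAF6 this holds for the gene's loops and not for its hub, which had 7 of its 17 partners inside the gene.

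**Figure D3:**
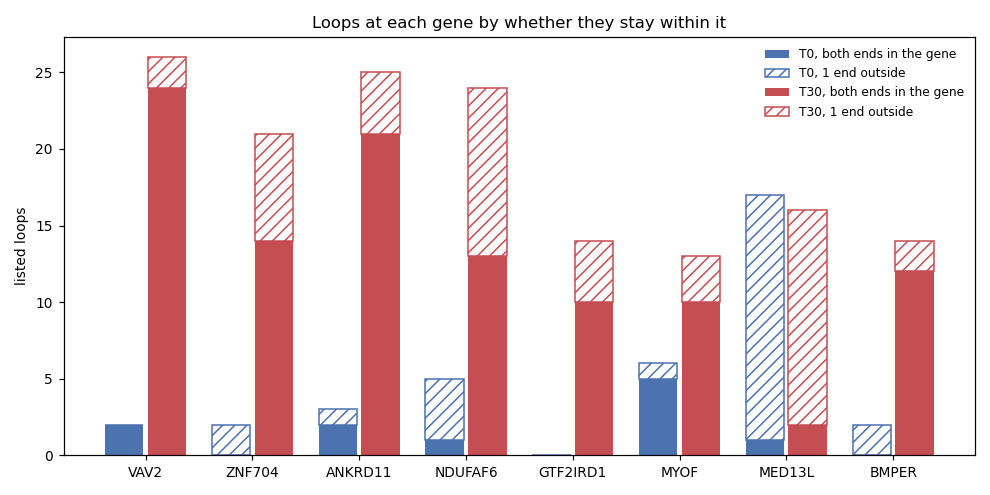
Bars give the listed loops at each gene widened by 10 kb, in T0 (blue) and T30 (red). Filled parts are loops with both ends in the gene and hatched parts are loops with 1 end outside. Filled parts make up most of the T30 bar at 7 genes, and at MED13L 2 of 16.

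Median spans, pooled over the 8 genes, were close to those of the lists. At the genes the T0 median was 215 kb (95% order-statistic interval 125 to 325) and the T30 median 85 kb (65 to 95), where all loops had 190 and 80 kb. MED13L held 17 of the 37 T0 loops, with a median of 400 kb. By gene, T0 medians ran from 15 kb at ANKRD11 (3 loops) to 415 kb at BMPER (2 loops). Of the genes with T0 loops, only ANKRD11 had a higher median in T30, of 65 kb. The shortest listed T0 spans at the genes were 10 and 15 kb, both at ANKRD11. In T30 45 loops of the 153 spanned 20 to 50 kb, a class of which T0 lists few anywhere. With both lists held to 50 kb or more 33 T0 loops and 108 T30 loops were left at the 8 genes, where the whole lists had 6141 and 6567. At 100 kb or more there were 31 and 63, where the whole lists had 5209 and 4108. At that span the T0 and T30 counts were 2 and 11 at VAV2, 2 and 11 at ZNF704, 3 and 10 at NDUFAF6, and 1 and 7 at ANKRD11. They were 0 and 4 at GTF2IRD1, 4 and 6 at MYOF, 2 and 3 at BMPER, and 17 and 11 at MED13L. Spans under 100 kb thus made up 84 of the net 116 extra loops at the 8 genes, MED13L included. In the whole lists they made up all of the net extra loops. They were the larger part at each of the 7 genes with more loops, from 10 of 19 at ZNF704 to 11 of 12 at BMPER, while MED13L had fewer long loops in T30.

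The surroundings of the genes were not all alike. Loops within 1 Mb of the widened gene that did not touch it numbered 10 in T0 and 58 in T30 at VAV2, 18 and 42 at ANKRD11, and 16 and 38 at GTF2IRD1. At these 3 genes the region, too, had more listed loops in T30. At ZNF704 the numbers were 19 and 25, at MYOF 11 and 13, and at MED13L 37 and 44, close to the 1.36 T30 loops per T0 loop of the whole lists or below it. At NDUFAF6 there were 14 and 8 and at BMPER 2 and 2, so that around these genes no gain was listed. The part of the regional difference in the gain at the first 3 genes was not tested.

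**Figure D4:**
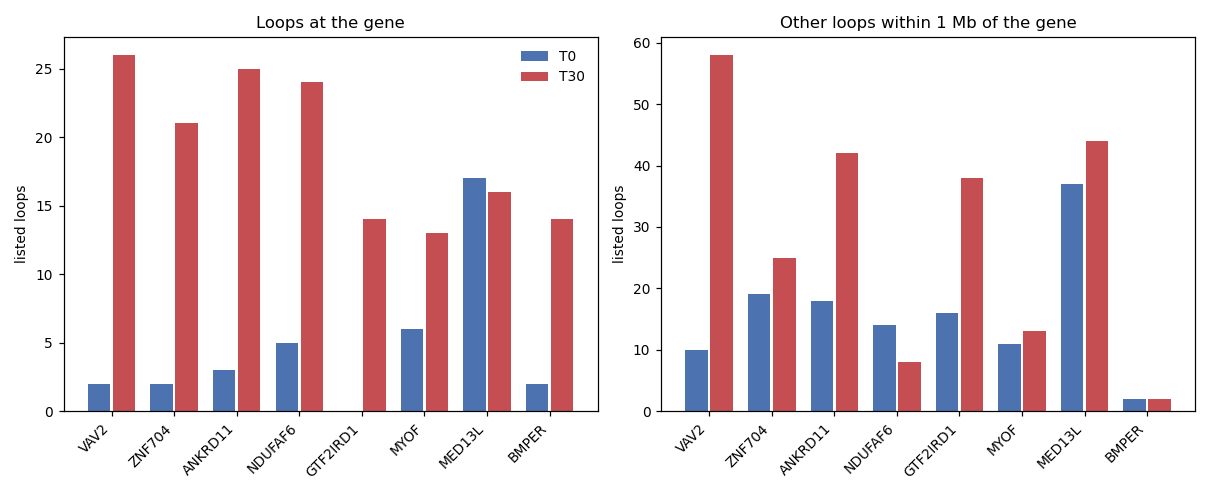
Bars give listed loops in T0 (blue) and T30 (red), at each gene widened by 10 kb (left) and within 1 Mb of it but not touching it (right). At VAV2 both panels are higher in T30, 2 and 26 on the left and 10 and 58 on the right, while at NDUFAF6 the left has 5 and 24 and the right 14 and 8.

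Contacts per loop did not differ much in the middle of the range. At the 8 genes the T0 median was 15 and the T30 median 14, against 14 and 13 over all loops. The 8 genes held 7 of the 53 T30 loops with at least 40 contacts and 1 of 430 in T0. That cut was passed by 53 of the 9591 T30 loops and 430 of the 7075 T0 loops, so it was not equally strict in the lists. Strong loops were among the reasons the genes were chosen. The T30 loops with most contacts were at MYOF (67, rank 4), BMPER and NDUFAF6 (59 each, rank 8), ZNF704 (54, rank 12), ANKRD11 (47, rank 22) and MED13L (41, rank 46). Those of VAV2 (26, rank 323) and GTF2IRD1 (25, rank 389) stood lower, within the top 3.37% and 4.06% of T30 loops. At 7 of the 8 genes the strongest loop ended in a hub bin, GTF2IRD1 being the exception. The share over other genes was not counted. Because the genes were chosen for many partners or strong loops, this count describes the choice.

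Loops were matched between the lists where the authors' cluster ranges overlapped at both ends. Of the 37 T0 loops 14 had a match, and of the 153 T30 loops 14. The median T30 to T0 ratio of contacts was 0.771 (95% order-statistic interval 0.522 to 1.40) over these 14 pairs and 0.667 over all 1389. A ratio at least 2-fold above the overall median was seen at 3 of the 14 and at 4.68% of all matched loops. They were the MED13L loop to the upstream hub (16 and 41 contacts, ratio 2.56, exact binomial 95% interval 1.41 to 4.89), the NDUFAF6 loop to CFAP418 (1.61, 0.865 to 3.08) and the MED13L loop to 116660001 (10 and 14, ratio 1.40, 0.578 to 3.52). The interval of the last holds the overall median of 0.667. The NDUFAF6 loop to PLEKHF2 had a ratio of 1.23 (0.826 to 1.84). Strong T30 loops were among the reasons the genes were chosen, so these ratios and intervals describe the choice and test nothing. Most T30 loops, 139 of 153 at the 8 genes, thus had no listed counterpart in T0. A match was found for 9.15% of T30 loops at the 8 genes and for 14.5% of all T30 loops. For T0 loops the shares were 37.8% and 19.6%.

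**Figure D5:**
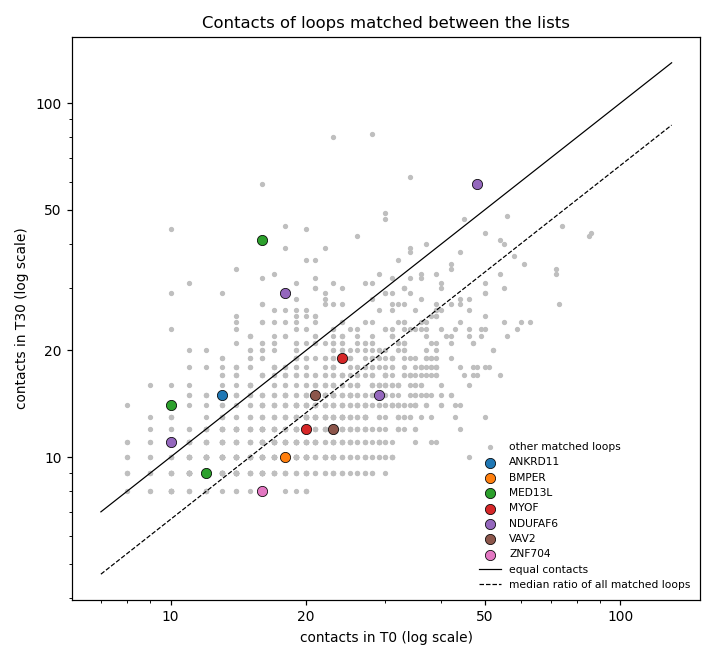
Each point is a loop matched between the lists, with its contacts in T0 and T30 on log axes. The 14 loops at the 8 genes are coloured, the solid line marks equal contacts and the dashed line the median ratio of 0.667. The MED13L loop of 16 and 41 contacts lies farthest above the lines among the coloured points.

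Relatives of the 8 genes were taken from lists of paralogs and complexes. A loop was listed at 12 of 32 other Mediator genes in T0 and at 6 of them in T30. Over all protein-coding genes the shares with a loop were 27.3% and 32.2%. Fewer partners in T30 were listed at 10 of the 32 and more at 3, by 1 or 2 each, where over all 19974 genes 3003 (15%) had fewer and 4274 (21.4%) more. MED1, the subunit that binds nuclear receptors, had 2 partners and then 0, MED24 also 2 and 0, and MED13, the paralog of MED13L, 1 and 0. MED27 had 0 and 2. Of 14 other complex I assembly factors only NDUFAF8 had a loop, with 2 partners in each library. GTF2I had 1 partner in each library, and GTF2IRD2 and GTF2IRD2B had none; these near-identical copies can share reads, so their 0 is uncertain.

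Among 10 genes of VAV signalling, GRB2, an adaptor, had 10 T0 partners and 5 T30 partners, and the GTPase genes RAC1 and RAC3 had 2 and 6 and 0 and 4. VAV1 had 1 and 1, and VAV3 had 3 and 1. On the ANKRD11 list, TBL1XR1, a subunit of corepressor complexes, had 3 and 6, and the paralog ANKRD12 had 1 and 0. Of 2 genes like ZNF704, ZNF395 had 0 and 1. Among 4 other ferlins FER1L6 had 4 and 7, and no other had a loop. Of 15 other secreted BMP modulators CHRD, chordin, had 9 and 12, TLL2, a protease, had 5 and 0, and TWSG1 had 0 and 3.

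The genes nearest to the members' median in log2 of partners plus 1, over the 2 libraries, were KRT37 (4 partners in T0 and 20 in T30), CHN2 (3 and 15), SNX8 (3 and 14), SH2D3C (4 and 14) and ST6GAL1 (4 and 14). Their loops did not all stay inside. In T30 9 of the 13 loops at CHN2, 9 of 12 at SNX8 and 10 of 13 at ST6GAL1 lay within the gene, against 0 of 21 at KRT37 and 2 of 13 at SH2D3C. These genes were not matched on length, which limits how many loops can lie within a gene. By gain in partners the 8 genes ranked from VAV2 (2nd) and ZNF704 (3rd) through BMPER (36th) to MYOF (177th) and MED13L (435th) of 8301 genes. MYOF and MED13L, with gains of 6 and 4, stood at the lower edge; the loops of 67 and 41 contacts are the other ground on which genes were chosen.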

How the data were processed

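Loop lists of 2 HiChIP libraries, 1 per condition, were used of the 23 samples of the series; the others were not analysed here. The deposited lists hold loops that passed a FitHiC q-value of 0.05, near ones merged, per the labels' descriptions. Whether replicates were pooled is not stated in the labels or headers. The submitters' processing notes name Bowtie, hg38 and GRCh38. Contacts are deposited as raw counts of read pairs per pair of bins. Each loop's deposited p-value and q-value allow for bin bias, per the file headers. A deposited fraction per cluster entered no result.

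Gene positions came from a RefSeq table of GRCh38.p14, in which all 8 genes were found; strand came from its promoter table. Genes were widened by 10 kb and bins of 5 kb were counted. The text names the 8 genes, list members, genes at partner bins, each gene's strongest loops and fullest bins, and the 5 most alike genes. Some list results are not reported here. Members and lists were chosen with earlier results of these data known. Counting was tested on simulated loops planted at genes with no other loop. The partners of all 200 planted hubs, some with fewer than 5, were recovered, which checks the counting code only. Intervals are at 95% and cover counting error only; read pairs need not be independent molecules. Alternatives were other q-values, contacts, widths, spans, list lengths, hub sizes, merged bins and a scaling. Scripts ran under Python 3.11.15 with scipy 1.17.1, pandas 2.3.3, matplotlib 3.10.9 and numpy 2.4.6.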

Additional observations from a re-analysis of the deposited data

How the results depend on the processing

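No paired analysis was possible because each condition was 1 library, and no library could be left out. The summed gain of 116 partners was 89 at q under 0.01, 89 with lists of equal length, 85 with adjacent partner bins merged, and, in settings added after the data were seen, 83 at spans of at least 50 kb and 43 at 100 kb. The T30 to T0 ratio of summed contacts, 4.20, was 6.47 at q under 0.01, 4.71 at spans of at least 20 kb, 3.66 with lists of equal length, 6.30 with contacts scaled by the median ratio of matched loops, 3.29 at 50 kb and 1.89 at 100 kb. The 10 T30 hub bins inside and 3 at gene ends became 23 and 5 for hubs of at least 3 partners and 3 and 0 for at least 10. T0 had 0 hubs at the main threshold, and 3 inside and 1 at a gene end for at least 3 partners. The T30 hubs inside were 6 at 50 kb and 2 at 100 kb. The T30 median span, 85 kb, was 110 kb and 150 kb at these spans, and the T30 share within a gene, 69.3%, was 47.6% at 100 kb. The gain at MED13L turned to -2 with lists of equal length and at 100 kb; the cause was not tested. Over all settings the gain ran from 11 to 26 at VAV2, 10 to 19 at ZNF704, 7 to 20 at ANKRD11, 7 to 18 at NDUFAF6, 6 to 16 at GTF2IRD1, 2 to 9 at MYOF, 2 to 11 at BMPER and -2 to 8 at MED13L. The depth of the libraries is unknown.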
